A study of Mus musculus with 6 samples.

Results

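Transcripts of 10 genes of the hypoxia-inducible factor (HIF) pathway were followed in activated mouse CD8+ T cells, lymphocytes that kill infected and malignant cells, after exposure to trans-vaccenic acid (TVA), a fatty acid of ruminant fat. They were the HIF subunit gene Hif1a, the HIF prolyl hydroxylase genes Egln1, Egln2 and Egln3, the von Hippel-Lindau gene Vhl, and the hypoxia-inducible genes Vegfa, Bnip3, Ankrd37, Ndrg1 and P4ha1. The genes were selected by name with results of these same TVA and DMSO libraries known, so their differences between the groups are described without p-values, and the fit over all genes enters only as a count. All 10 were present among the 24589 gene symbols in the table of TPM values (transcript levels scaled for length and to a total that is equal between libraries), and all 10 reached 1 TPM in at least 3 libraries, the condition for entering the fit.

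The libraries came from wild-type (WT) primary CD8+ T cells that were taken from C57BL/6 mice, isolated from spleen and lymph nodes by magnetic bead purification, and activated with antibodies to CD3 and CD28. Cells were then kept for 24 h with the solvent DMSO in the 3 control libraries or with 20 µM TVA in the 3 treated libraries. Both groups were thus activated cells in the same culture medium, and the labels name no low-oxygen step. No source used here says whether the libraries of a group came from separate animals or cultures, so the spread between them may be technical. The study's methods describe age-matched mice of both sexes without tying them to libraries.

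HIF-1α protein is made continuously and destroyed continuously when oxygen is plentiful. The EGLN enzymes use oxygen and 2-oxoglutarate to hydroxylate prolines of HIF-1α, and the hydroxylated protein is bound by VHL, the recognition subunit of a ubiquitin ligase, and degraded. When hydroxylation slows, HIF-1α accumulates, pairs with ARNT and binds DNA at hypoxia response elements to induce genes of glycolysis, angiogenesis, mitophagy and collagen hydroxylation, with Egln3 itself among them. In CD8+ T cells, receptor stimulation also raises HIF-1α without low oxygen, and the pathway is linked to glycolysis and effector function. Because control acts largely on protein stability, a transcript level is not a measure of HIF-1α protein or of its activity.

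The promoters of the 5 members that follow are shown because they belong to the member that was higher with TVA, to the 3 members with the lowest ratio of TVA to DMSO, and to P4ha1, whose libraries lay lower by the smallest ratio. Each is the 250 bases before the gene start in RefSeq for GRCm38.p6, the build mm10 named in the submitters' processing notes, written 5′ to 3′ on the gene's strand. Capitals mark the core of the hypoxia response element, searched as ACGTG and GCGTG on both strands (read as CACGT and CACGC on the strand shown), where CACGTG counts as 2 overlapping matches. Positions are chr12:73907617-73907866 on the plus strand for Hif1a, chr12:54203875-54204124 on the minus strand for Egln3, chr8:45999851-46000100 on the minus strand for Ankrd37, chr7:138909507-138909756 on the minus strand for Bnip3 and chr10:59323046-59323295 on the plus strand for P4ha1. The windows of Hif1a and Ankrd37 lie inside the GENCODE genes given further on, since that annotation starts both genes upstream of RefSeq.
Hif1a: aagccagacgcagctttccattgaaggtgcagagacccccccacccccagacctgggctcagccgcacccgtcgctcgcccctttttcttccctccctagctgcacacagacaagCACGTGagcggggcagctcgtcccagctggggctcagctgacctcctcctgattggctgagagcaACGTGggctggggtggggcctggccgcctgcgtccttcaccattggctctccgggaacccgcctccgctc
Egln3: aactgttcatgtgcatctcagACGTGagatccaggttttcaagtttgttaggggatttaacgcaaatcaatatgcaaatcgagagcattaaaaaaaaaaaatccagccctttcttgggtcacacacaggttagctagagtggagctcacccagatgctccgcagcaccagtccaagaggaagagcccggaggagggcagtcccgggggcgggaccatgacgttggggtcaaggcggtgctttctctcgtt
Ankrd37: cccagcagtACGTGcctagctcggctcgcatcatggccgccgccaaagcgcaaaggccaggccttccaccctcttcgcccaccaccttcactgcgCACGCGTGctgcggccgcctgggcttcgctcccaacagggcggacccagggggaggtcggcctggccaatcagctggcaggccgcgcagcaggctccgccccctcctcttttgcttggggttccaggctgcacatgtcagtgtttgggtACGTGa
Bnip3: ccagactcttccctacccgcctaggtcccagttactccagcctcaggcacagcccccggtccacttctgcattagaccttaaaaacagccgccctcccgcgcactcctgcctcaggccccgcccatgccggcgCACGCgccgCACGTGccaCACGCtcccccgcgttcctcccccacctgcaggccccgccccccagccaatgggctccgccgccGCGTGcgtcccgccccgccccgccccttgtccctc
P4ha1: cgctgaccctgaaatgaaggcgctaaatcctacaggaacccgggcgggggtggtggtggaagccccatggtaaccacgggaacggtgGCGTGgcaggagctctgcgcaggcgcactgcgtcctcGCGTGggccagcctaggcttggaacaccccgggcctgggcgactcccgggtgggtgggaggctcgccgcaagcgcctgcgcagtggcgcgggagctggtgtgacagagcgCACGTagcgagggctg

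In these windows Bnip3 held 5 matches, Ankrd37 held 4, Hif1a and P4ha1 held 3 each, and Egln3 held 1, which began at position -229 relative to the gene start. The Bnip3 and Hif1a windows each contained 1 CACGTG. RefSeq gave 11 windows for 9 of the 10 members, with no window for Ndrg1. A core match was found in 9 of the 11 windows, and the exceptions were the window of Vhl and 1 of the 2 windows of Vegfa. Such a short motif was common, since 57.1% of the 10715 windows of genes tested and 38.6% of all 32851 windows held at least 1 match, and CACGTG was found in 8.7% of the former. The GC content of the 5 printed windows ran from 50.8% in Egln3 to 72.4% in Bnip3, against a median of 60.0% for the genes tested. A match is a run of letters and not a shown binding site, and the number of matches in these windows did not follow the order of the expression differences given next, as Egln3 had the fewest among the 5.

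Across the libraries, 10778 to 10870 genes reached 1 TPM, and 10866 genes were fitted. The library DMSO 2 stood nearer to the TVA libraries than to its own group, with a correlation of log2 values of 0.996 with each TVA library and 0.993 to 0.995 with the other DMSO libraries, and it lay at 1.23 on the first principal component between DMSO 1 and 3 (-18.2 and -12.8) and the TVA libraries (8.8 to 10.8). For that reason values without DMSO 2 accompany the members. Across genes the log2 change also followed GC content, with a Spearman correlation of -0.401 that is a description across genes and not a test. Values after removal of that trend (GC correction) are therefore given for each member, and for other genes only in part. The defining CD8 T cell genes Cd3e, Cd3g, Cd8a and Cd8b1 summed to 1200.5 to 1261.1 TPM in DMSO libraries and 1352.6 to 1373.7 TPM in TVA libraries. For 3 of these 4 genes every TVA library lay above every DMSO library, as for 27.3% of all genes fitted. Of the markers of other cells, Lyz2, Csf1r, Itgam and Adgre1 mark myeloid cells. Their sum was 32.4 to 34.5 TPM in DMSO libraries and 43.2 to 45.6 TPM in TVA libraries. All TVA libraries lay above all DMSO libraries for Lyz2 and Itgam, while Csf1r entered the fit only through its TVA libraries and is not counted. Cd79a and Ms4a1 (B cells) summed to at most 1.46 TPM in any library. Ncr1 and Klrb1c (NK cells) summed to 0.49 to 0.85 TPM in DMSO libraries and 0.23 to 0.43 TPM in TVA libraries. Cd4 was at 4.25, 4.46 and 3.8 TPM in DMSO libraries and 3.62, 3.64 and 3.33 TPM in TVA libraries. Its TVA libraries all lay below, as for 11.2% of all genes fitted. The hemoglobin genes Hba-a1 and Hbb-bs summed to 11.3 to 24.5 TPM in the controls and 6.96 to 20.3 TPM with TVA. The part of these other cells in the results was not tested, and in bulk RNA fewer cells of a type and less RNA per cell cannot be told apart.

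Hif1a, which encodes the oxygen-regulated subunit of HIF-1, was the most abundant transcript of the set and the only member that was higher with TVA. Its TPM was 94.05, 96.14 and 96.64 in DMSO 1, 2 and 3 and 110.67, 118.23 and 117.49 in TVA 1, 2 and 3. All TVA libraries lay above all DMSO libraries, and DMSO 2 did not stand apart for this gene. The mean went from 95.6 ± 1.37 TPM (SD, n = 3) to 115.5 ± 4.17 TPM (SD, n = 3), a ratio of 1.21. On the log2(TPM + 1) scale used for every change below, which understates the change of low genes, the difference was 0.27 with a standard error (SE) of 0.0395. Hif1a had the lowest GC content of the members, 41.3% against a median of 50.4% for the genes tested, and its log2 difference was 0.18 after GC correction and 0.27 without DMSO 2. The gene lies on chromosome 12 at 73901375 to 73947530 on the plus strand (GRCm38, GENCODE vM21), and 330 of its exonic bases are shared with the antisense gene Gm15283 and 148 with Gm49321, neither of which was analysed here.

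**Figure D1:**
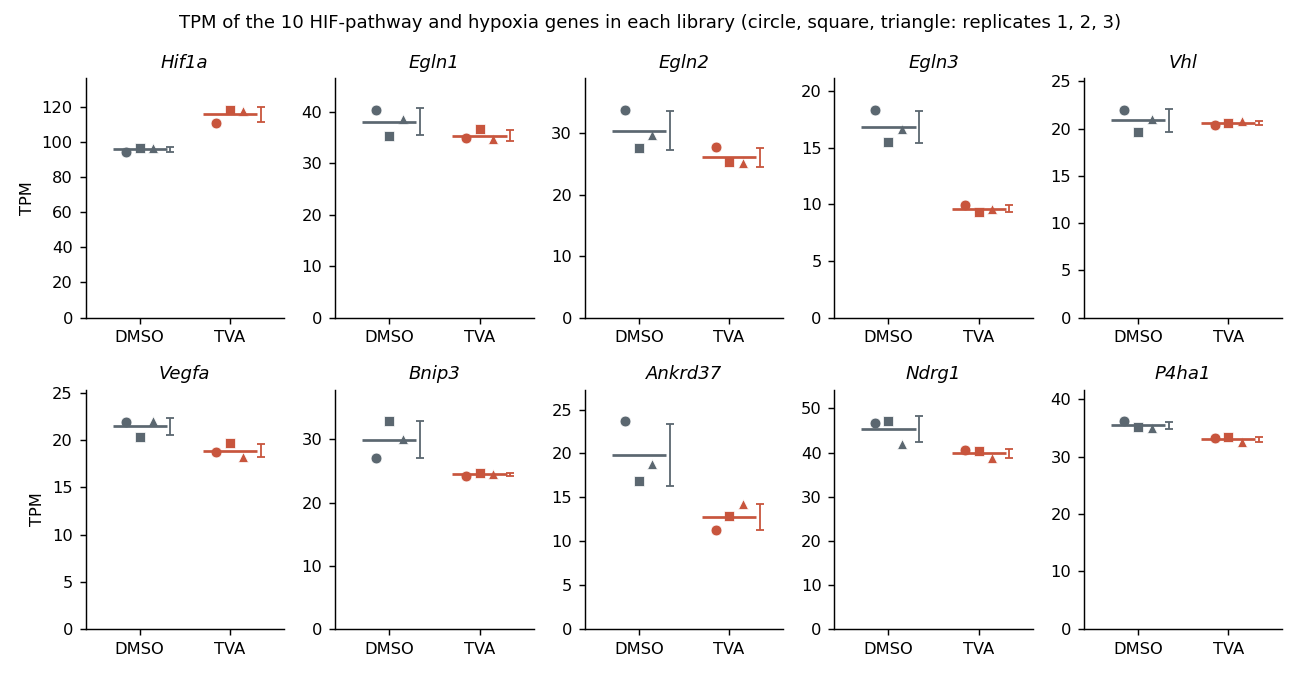
TPM of the 10 members in each library, 1 panel per gene with the y axis from 0, circles, squares and triangles for replicates 1, 2 and 3, horizontal lines for group means and bars for the SD (n = 3 per group). The TVA libraries of Hif1a lie above the DMSO libraries, those of Egln3, Vegfa, Bnip3, Ankrd37, Ndrg1 and P4ha1 lie below them, and those of Egln1, Egln2 and Vhl overlap with them.

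The 3 prolyl hydroxylase genes did not move alike, and the marked difference was in Egln3. Egln3 encodes the isoform that is itself strongly induced by HIF. Its TPM was 18.35, 15.49 and 16.61 in the DMSO libraries and 9.93, 9.28 and 9.62 in the TVA libraries. The groups were far apart, with the lowest DMSO value, that of DMSO 2, well above the highest TVA value. The means were 16.8 ± 1.44 and 9.61 ± 0.325 TPM (SD, n = 3 each), so the level with TVA was 0.571 of that with DMSO, a difference of -42.9% relative to DMSO. The log2 difference was -0.75 (SE 0.066), the 86th most negative of the 10866 genes fitted, and it was -0.80 without DMSO 2 and -0.77 after GC correction. Egln3 spans 54178981 to 54203860 on the minus strand of chromosome 12.

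Egln1 encodes PHD2, the main oxygen-sensing hydroxylase of HIF-1α under normal oxygen. Its TPM was 40.39, 35.23 and 38.48 with DMSO and 34.87, 36.54 and 34.63 with TVA. The groups overlapped because DMSO 2 lay below TVA 2. The log2 difference was -0.10 (SE 0.0561), -0.15 without DMSO 2, -0.058 without DMSO 1 and -0.059 after GC correction. The gene lies on the minus strand of chromosome 8 at 124908587 to 124949324.

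Egln2 encodes PHD1, a nuclear member of the family. Its TPM was 33.86, 27.67 and 29.69 with DMSO and 27.79, 25.26 and 25.18 with TVA. Here too the overlap came from DMSO 2, which lay just below TVA 1. The log2 difference was -0.21 (SE 0.0768), -0.27 without DMSO 2 and -0.13 without DMSO 1. Its direction depended on the handling of GC content. Egln2 was the most GC-rich member at 62.2%, and after GC correction its difference was 0.059 in the other direction. Egln2 lies on the minus strand of chromosome 7 at 27158658 to 27166802.

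Because TPM is scaled for length, the 3 hydroxylase transcripts could be added within a library. Their summed level was 92.6, 78.4 and 84.8 TPM in the DMSO libraries and 72.6, 71.1 and 69.4 TPM in the TVA libraries, with no overlap between groups. Egln3 made up 19.8%, 19.8% and 19.6% of that sum with DMSO and 13.7%, 13.1% and 13.9% with TVA. This share hardly varied within a group, and DMSO 2, which was low for each of the 3 genes, had the same Egln3 share as DMSO 1. Egln1 held 44.6% ± 0.921 of the sum with DMSO and 49.8% ± 1.69 with TVA, and Egln2 held 35.6% ± 0.824 and 36.7% ± 1.42 (SD, n = 3 each). The ratio of Hif1a to Egln3 TPM was 5.13, 6.21 and 5.82 with DMSO and 11.1, 12.7 and 12.2 with TVA. These shares and ratios are built from the same values as the gene differences above and are no separate evidence.

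**Figure D2:**
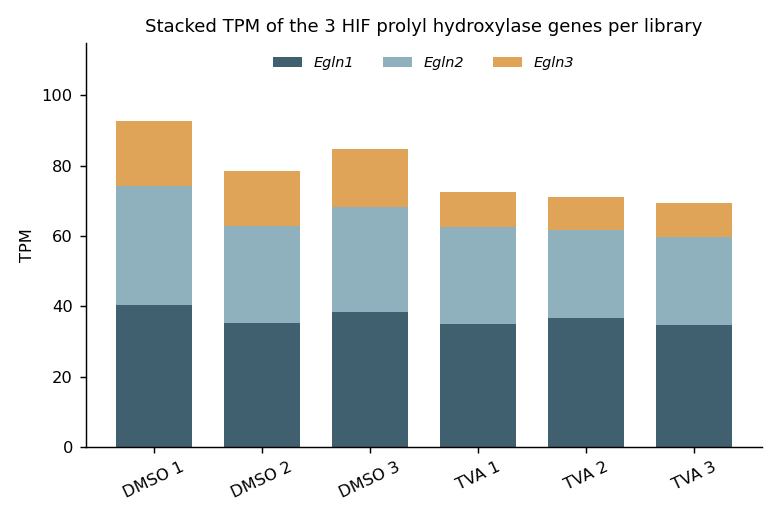
Stacked TPM of Egln1, Egln2 and Egln3 in each of the 6 libraries (y axis in TPM from 0, one bar per library). The Egln3 segment is 15.49 to 18.35 TPM high in the DMSO bars and 9.28 to 9.93 TPM in the TVA bars, while the Egln1 segments of the groups overlap.

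Vhl, the gene of the protein that recognizes hydroxylated HIF-1α, was at 22.02, 19.6 and 21.04 TPM in DMSO libraries and 20.39, 20.59 and 20.81 TPM in TVA libraries. The TVA values lay inside the range of the DMSO values. Its log2 difference was -0.02 (SE 0.0508), the smallest in size of the members, and it ran from -0.061 after GC correction or without DMSO 2 to 0.019 without DMSO 1. Vhl lies on the plus strand of chromosome 6 at 113623959 to 113631633.

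The other hypoxia-inducible members were each lower in all TVA libraries than in all DMSO libraries, with differences of means, relative to DMSO, from -35.4% for Ankrd37 to -6.81% for P4ha1. Ankrd37, a small ankyrin repeat gene that is a direct HIF-1 target, was at 23.7, 16.86 and 18.78 TPM in DMSO libraries and 11.26, 12.87 and 14.21 TPM in TVA libraries. It was the most variable member, with a coefficient of variation of 17.8% in DMSO and 11.6% in TVA, and DMSO 2 came closest to the TVA range. The means were 19.8 ± 3.53 and 12.8 ± 1.48 TPM (SD, n = 3 each), a ratio of 0.646. The log2 difference was -0.58 (SE 0.125) and moved between -0.45 without DMSO 1 and -0.69 without DMSO 2, with -0.61 after GC correction. Ankrd37 lies on the minus strand of chromosome 8 at 45996902 to 46005707 and shares 57 exonic bases with Ufsp2 on the opposite strand, which was listed at 33.45 to 39.28 TPM. Whether the counting used strand is not given in the sources used here, so reads from those shared bases cannot be told apart.

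Bnip3 encodes a mitochondrial outer membrane protein that acts as a receptor for mitophagy. Its TPM was 27.01, 32.92 and 30.0 with DMSO and 24.16, 24.62 and 24.59 with TVA. The TVA libraries were nearly equal, and unlike for most members DMSO 2 was the highest library and DMSO 1 the nearest to TVA. The means were 30.0 ± 2.96 and 24.5 ± 0.257 TPM (SD, n = 3 each), with a ratio of 0.816. The log2 difference was -0.28 (SE 0.0682), -0.21 without DMSO 2, -0.35 without DMSO 1 and -0.30 after GC correction. An antisense gene, Gm45507, shares 504 exonic bases with Bnip3, which lies on the minus strand of chromosome 7 at 138890836 to 138909519.

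Ndrg1, a stress-responsive gene widely used as a hypoxia marker, was at 46.77, 47.16 and 41.96 TPM in DMSO libraries and 40.61, 40.3 and 38.73 TPM in TVA libraries. DMSO 3 was the lowest control library and lay just above the highest TVA library. The ratio of means was 0.88 and the log2 difference was -0.18 (SE 0.0535), with -0.15 without DMSO 1, without DMSO 2 or after GC correction and -0.23 without DMSO 3. Ndrg1 lies on the minus strand of chromosome 15 at 66929318 to 66969640 and shares 419 exonic bases with the antisense gene Gm17035.

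Vegfa encodes the angiogenic growth factor VEGF-A, a classical HIF target. Its TPM was 21.96, 20.39 and 22.05 with DMSO and 18.77, 19.71 and 18.26 with TVA. The gap between the groups was narrow, with DMSO 2 the lowest control. The ratio of means was 0.881 and the log2 difference was -0.17 (SE 0.0505), with -0.21 without DMSO 2 and -0.16 after GC correction. Vegfa lies on the minus strand of chromosome 17 at 46016993 to 46032369.

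P4ha1 encodes the catalytic subunit of collagen prolyl 4-hydroxylase, an enzyme of the same 2-oxoglutarate-dependent class as the EGLN proteins. Its TPM was 36.2, 35.17 and 35.03 with DMSO and 33.16, 33.42 and 32.57 with TVA. The difference was small and the libraries of each group were close together. The ratio of means was 0.932 and the log2 difference was -0.10 (SE 0.0374), -0.10 without DMSO 2 and -0.15 after GC correction. P4ha1 lies on the plus strand of chromosome 10 at 59323296 to 59373304.

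Counted over the set, 9 of 10 members had a lower mean with TVA, as did 38.5% of all genes fitted, and the median log2 difference was -0.18, where the median of all genes fitted was 0.04. For the 6 members taken here as HIF-induced (Egln3, Vegfa, Bnip3, Ankrd37, Ndrg1 and P4ha1), a choice that leaves out Egln1, the median was -0.23. Every TVA library lay below every DMSO library for these 6 members, for 11.2% of all genes fitted. For Hif1a the TVA libraries all lay above, as for 27.3% of all genes fitted, and Egln1, Egln2 and Vhl overlapped. By limma with an adjusted p under 0.05, 4 members were among the genes called, which made up 8.51% of the genes fitted. Of these, 1 was called higher, as were 5.28% of the genes fitted, and 3 were called lower, as were 3.23%. Since the members were chosen from this contrast, nothing is drawn from these counts. The split of calls over all genes depended on the scaling, with 574 higher and 351 lower as deposited, 292 and 462 with median-of-ratios scaling, 357 and 418 when quantile normalized, and 579 and 537 after GC correction.

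**Figure D3:**
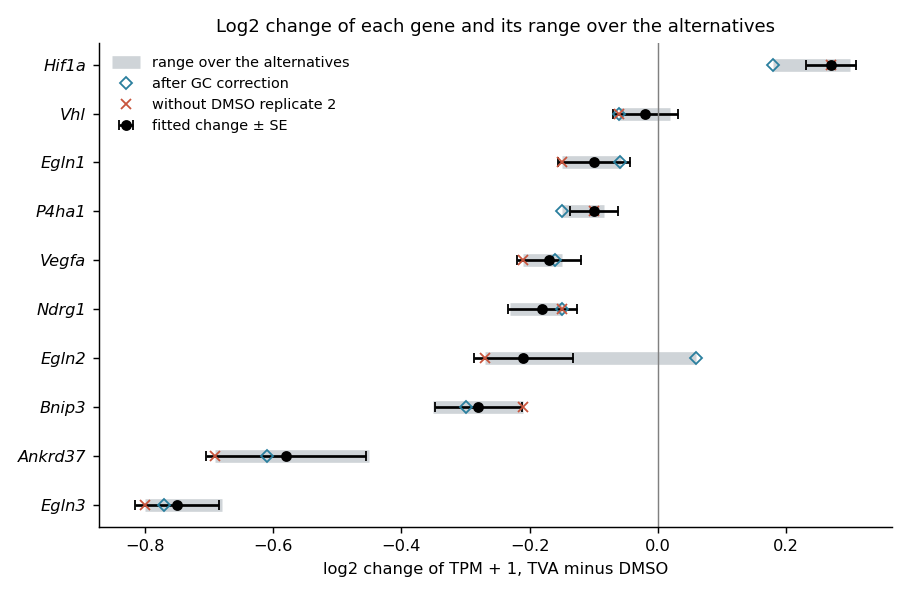
Log2 difference of each member (x axis, log2 of TPM + 1, TVA minus DMSO), with black points and bars for the fitted value ± SE, grey bands for the range over the alternatives, diamonds for the value after GC correction and crosses for the value without DMSO 2. Hif1a stays at or above 0.18 and Egln3 at or below -0.68, while the bands of Egln2 and Vhl cross 0.

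The order of the members by level changed in part. With DMSO the order of mean TPM was Hif1a, Ndrg1, Egln1, P4ha1, Egln2, Bnip3, Vegfa, Vhl, Ankrd37 and Egln3. Among neighbours in that order, the library ranges overlapped for Egln1 and P4ha1, for Egln2 and Bnip3, and for each pair along Vegfa, Vhl, Ankrd37 and Egln3. With TVA the order was the same except that Vhl stood above Vegfa, and no neighbours overlapped. The lower end of the set thus spread out, from 16.8 to 21.5 TPM for the means of the lowest 4 genes with DMSO to 9.61 to 20.6 TPM for the same genes with TVA.

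Over the 6 libraries, which form 2 groups, Hif1a and Egln3 ran in opposite directions (Pearson r -0.98), and Egln3 ran with P4ha1 (0.96) and Ankrd37 (0.92). Bnip3 was loosely tied to Egln1 (0.22) and Egln2 (0.34), and Vhl to Ndrg1 (0.03) and Bnip3 (-0.31). These coefficients mostly restate the group difference and describe 6 points only. The mean standardized profile of the 6 HIF-induced members was 1.05, 0.75 and 0.65 in the DMSO libraries and -0.86, -0.67 and -0.94 in the TVA libraries. Among 7552 other genes whose mean was 10 TPM or more, the 5 most like that profile were Tnfaip3 and Serpina3f (Pearson r 0.997 each), Sytl3 (0.995), Rasgef1b and Furin (0.994 each). Rasgef1b went from 17.2 ± 0.805 to 9.54 ± 0.147 TPM and Furin from 59.0 ± 5.33 to 39.2 ± 1.57 TPM (SD, n = 3 each), differences as large as that of Ankrd37, while Tnfaip3 went only from 87.6 ± 1.08 to 81.3 ± 0.452 TPM. Sytl3 went from 56.5 ± 2.35 to 38.0 ± 0.881 TPM and Serpina3f from 11.3 ± 0.452 to 8.74 ± 0.229 TPM, so the likeness is one of pattern across libraries and not of size.

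Of 14 other components of the HIF machinery 11 could be tested, and 1, Cited2, passed the limma test, where 8.51% of all genes fitted passed, so the share of the list was close to that of all genes. The median log2 change of the list was 0.03, against 0.04 for all genes. Like the members, this list and those below were chosen with earlier results of these data known. Their counts and adjusted p-values are therefore descriptions and no independent test of the pathway. Cited2, whose product competes with HIF-1α for the coactivators p300 and CBP and which HIF itself induces, fell from 18.37, 13.11 and 15.53 TPM to 10.81, 10.49 and 10.49 TPM (a log2 change of -0.51 with an SE of 0.104, adjusted p = 0.031 by limma). The TVA libraries were nearly equal and all lay below the controls, but the call was lost in 6 of 14 alternatives, with adjusted p from 0.002 to 0.13. Arnt, the partner of HIF-1α, had 20.7 ± 0.344 and 23.1 ± 1.6 TPM (a log2 change of 0.15, adjusted p = 0.12 by limma). Hif1an, the asparaginyl hydroxylase that blocks coactivator binding, had 20.8 ± 1.07 and 23.6 ± 0.386 TPM (a log2 change of 0.18, adjusted p = 0.061 by limma). Neither passed the test. All their TVA libraries lay above all their DMSO libraries, as for 27.3% of all genes fitted. Hif1an passed the limma test without DMSO 2 (adjusted p = 0.033) and after GC correction (adjusted p = 0.049), in a range of 0.033 to 0.21 over the alternatives. The alternative α subunits were at low levels, with Epas1 at 0.26 to 0.41 TPM and Hif3a at 0.13 to 0.24 TPM, so Hif1a was the one α subunit gene above 1 TPM.

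Of 44 hypoxia-induced genes outside glycolysis, 34 entered the fit, and 32 of them had a mean of at least 1 TPM over the 6 libraries, a limit set after the values were seen. Among these 32, 4 fell and 1 rose, where 3.23% of all genes fitted fell and 5.28% rose, and the median log2 change was -0.03 against 0.04 for all genes. Median-of-ratios scaling and quantile normalization turned the balance of calls over all genes. With each of them the 34 genes gave 1 higher and 5 lower calls, as with the deposited values. In each case the 5 lower calls include Edn1, whose call is not used, as given below. Hilpda, which encodes a lipid droplet protein that restrains triglyceride breakdown, was the gene that rose. It was at 74.26, 74.0 and 69.74 TPM in DMSO libraries and 113.58, 118.29 and 118.09 TPM in TVA libraries (a log2 change of 0.68 with an SE of 0.0407, adjusted p = 0.00048 by limma). The groups were wide apart, in the direction opposite to that of the HIF-induced members, and the call held in all 14 alternatives with adjusted p up to 0.0087. Pdgfb, a growth factor chain gene, fell from 20.7 ± 2.42 to 12.0 ± 0.621 TPM (a log2 change of -0.74, adjusted p = 0.0046 by limma). This call also held in all 14 alternatives, with adjusted p up to 0.035.

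Edn1, the endothelin-1 gene, was at 1.42 ± 0.115 TPM in the controls and 0.293 ± 0.0586 TPM with TVA, and because it entered the fit only through its DMSO libraries its call is not used. The remaining calls outside glycolysis were lost under some alternatives. P4ha2, the paralogue of P4ha1, fell from 3.17 ± 0.282 to 2.11 ± 0.146 TPM (a log2 change of -0.42, adjusted p = 0.022 by limma), Ak4, a mitochondrial adenylate kinase gene, from 9.3 ± 0.546 to 7.33 ± 0.229 TPM (-0.30, adjusted p = 0.025 by limma), and Ddit4, an inhibitor of mTORC1 signalling, from 256.7 ± 15.6 to 222.2 ± 2.06 TPM (-0.21, adjusted p = 0.045 by limma). The calls of P4ha2 and Ak4 were lost in 5 of 13 alternatives each and that of Ddit4 in 9 of 14. GC correction was among these for Ddit4 (a log2 change of -0.13, adjusted p = 0.12 by limma). Bnip3l, the paralogue of Bnip3, had 51.5 ± 1.81 and 50.6 ± 0.607 TPM (a log2 change of -0.03, adjusted p = 0.67 by limma). Kdm3a, a histone demethylase gene, differed by -0.10 and Angptl4, an inhibitor of lipoprotein lipase, by 0.07 on the log2 scale, with limma adjusted p of 0.14 and 0.41. After GC correction Kdm3a passed the test (a log2 change of -0.17, adjusted p = 0.024 by limma), and in the other 13 of 14 alternatives it did not.

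All 21 hypoxia-induced glycolysis genes could be tested, and 4 fell, where 3.23% of all genes fitted fell. This list too was chosen with earlier results of these data known, so its counts are a description. The median log2 change was -0.11 against 0.04 for all genes, and the mean was lower with TVA in 18 of the 21 genes, as in 38.5% of all genes fitted. With median-of-ratios scaling, quantile normalized or after GC correction 5 genes were called, each lower. The glucose transporter genes Slc2a1 and Slc2a3 were among them, at 94.1 ± 6.33 and 79.4 ± 0.87 TPM (a log2 change of -0.24, adjusted p = 0.035 by limma) and at 36.1 ± 0.387 and 29.2 ± 0.56 TPM (-0.30, adjusted p = 0.0074 by limma). Pfkp, a phosphofructokinase gene, fell by 0.18 on the log2 scale (adjusted p = 0.037 by limma). Pgam1, the phosphoglycerate mutase gene, fell by 0.26 (adjusted p = 0.022 by limma), a value that is uncertain because RefSeq lists processed pseudogene copies that could share its reads. The abundant Ldha, the lactate dehydrogenase A gene, was at 1889.4 ± 75.9 and 1793.2 ± 15.6 TPM (a log2 change of -0.07, adjusted p = 0.26 by limma), and Pdk1, the kinase that restrains pyruvate dehydrogenase, at 33.8 ± 0.796 and 34.4 ± 0.595 TPM (0.03, adjusted p = 0.67 by limma). Neither passed the test. The call of Slc2a3 was lost in 2 of 14 alternatives, that of Pgam1 in 5 and those of Slc2a1 and Pfkp in 6 each. Without TVA 2 or without TVA 3 no glycolysis gene was called by limma, where 6 and 5 genes had an unadjusted p under 0.05.

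**Figure D4:**
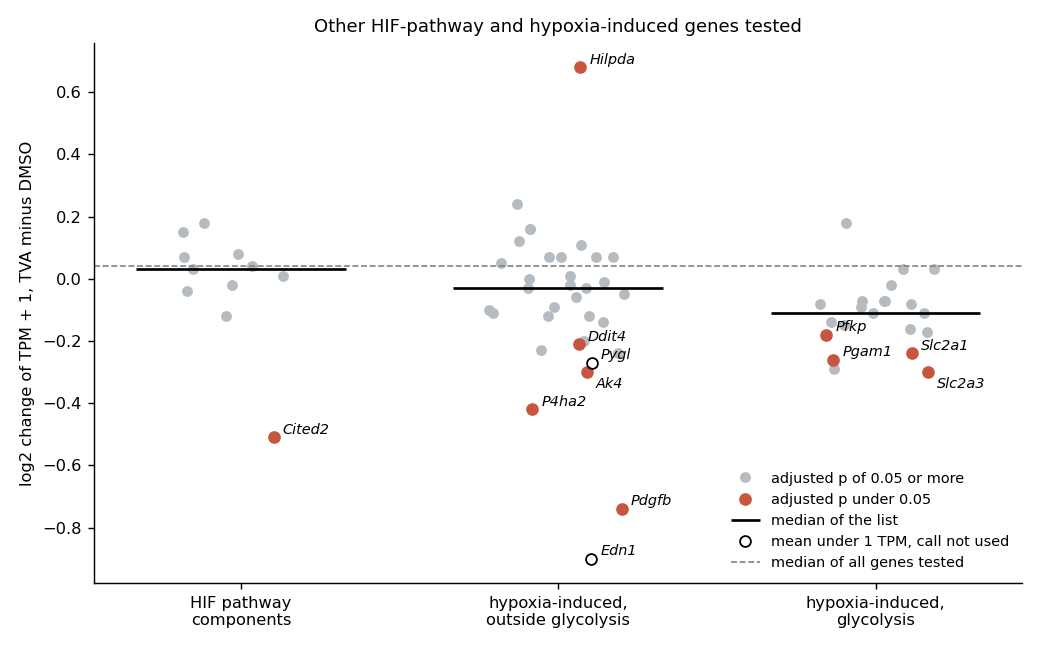
Log2 change (y axis, log2 of TPM + 1, TVA minus DMSO) of each tested gene of the HIF component list and of the hypoxia-induced lists outside and within glycolysis, with red points for genes of adjusted p under 0.05 by limma, open circles for genes with a mean under 1 TPM, whose calls are not used, black lines for the medians of the other genes of each list (0.03, -0.03 and -0.11) and a dashed line for the median of all genes (0.04). Red points lie below 0 except Hilpda at 0.68, and most points lie near the dashed line.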

How the data were processed

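RNA libraries of 3 DMSO and 3 TVA samples were prepared per the labels with a SMARTER mRNA-Seq kit. The authors deposited 1 table of TPM values per gene symbol. The submitters' processing notes name STAR, RSEM and mm10, while versions, gene annotation and strand setting are not given in the sources used here. TPM keep no sequencing depth, so depth is unknown and no counting interval is given. Samples were grouped by their titles, and columns were matched through the sample descriptions. TPM were used as deposited and compared as log2(TPM + 1) for the 10866 genes with at least 1 TPM in at least 3 libraries, with limma 3.58.1 in R 4.3.3 (trended prior variance, two-sided, Benjamini-Hochberg adjustment over all genes tested, threshold 0.05, no replicate block). The procedure was tested on simulated data. P-values measure the spread between these samples only.

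The members and all lists were chosen with earlier results of these data known. A few list genes are not reported here and were left out of the list counts. Named genes were the 10 members without p-values, up to 6 called genes per direction of each further list, 14 pathway genes named whatever their result, and the 5 genes most like the mean profile of the HIF-induced members. Alternatives were a pseudocount of 0.1, other filters on low values, median-of-ratios scaling, quantile normalization, no variance trend, the replicate block, loess correction for GC content (span 0.5, known for 99.5% of genes tested) and leaving out each library. Gene positions come from GENCODE vM21, promoters and motif matches from RefSeq windows of GRCm38.p6, and 99.2% of symbols matched RefSeq.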

Additional observations from a re-analysis of the deposited data

How the results depend on the processing

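Of 140 values of the members under alternatives, 5 moved by at least the spread between replicates. They were Hif1a (0.18) and Egln2 (0.059) after GC correction and P4ha1 (-0.13 with median-of-ratios scaling or quantile normalized, -0.15 after GC correction). The other 135 are no measure of stability, because most could not move that far. Other filters, no variance trend and the replicate block leave a member's log2 change as it is. Leaving out 1 of 3 libraries always moves it by less than that spread. Genes called numbered 925 as reported, 494 with all genes above 0 TPM, 608 with a mean of at least 10 TPM, 218 with the replicate block, and 95 (without TVA 2) to 2211 (without DMSO 2) when 1 library was left out, with 285 without DMSO 3, 121 without TVA 1 and 102 without TVA 3. Members called went from 4 to 2 with all genes above 0 TPM, 2 with the replicate block and 1 to 6 without 1 library (2 without TVA 1, 1 without TVA 2 or TVA 3, 6 without DMSO 2). HIF component calls went from 1 to 0 with all genes above 0 TPM (limma, 5 at an unadjusted p under 0.05), 0 with the replicate block (3 unadjusted), 2 after GC correction and 0 to 2 without 1 library, with 2 without DMSO 2 and 0 without DMSO 3 or any TVA library (2 or 3 unadjusted). Calls outside glycolysis, Edn1 included, went from 6 to 9 after GC correction (1 higher, 8 lower), 3 with a mean of at least 10 TPM, 3 with the replicate block and 3 to 7 without 1 library, with 3 without DMSO 3 or any TVA library. Glycolysis calls went from 4 to 2 with all genes above 0 TPM, 1 with the replicate block and 0 to 5 without 1 library, with 2 without DMSO 3, 1 without TVA 1 and 0 without TVA 2 or TVA 3. The cause of these shifts was not tested. Fits that leave 1 library out also hold fewer libraries, and their calls over all genes included 935 without DMSO 1 and 2211 without DMSO 2. Same-numbered samples did not deviate together (correlations 0.157, 0.0348 and -0.0767), hence replicate numbers were not taken as pairs, and a call lost under the replicate block is no sign of a weaker change. Of 246 values of 18 other named genes, 195 kept direction and side of the threshold, 44 lost the call, 3 gained it and 4 changed direction, all in genes near 0: Bnip3l without DMSO 2 (0.000152, in a range from -0.049 over the fits that leave 1 library out) and Pdk1 after median-of-ratios scaling (-0.00345), quantile normalization (-0.0037) and GC correction (-0.0283). Median-of-ratios scaling moved the median change of all genes from 0.0391 to 0.0113. The unknown depth, 3 libraries a group and a control library near the TVA group limit what can be said of differences as small as those of Egln1, P4ha1 and Vhl.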
